A study of Mus musculus with 12 samples.

Results

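CD115-CDPs are common dendritic cell (DC) progenitors of the bone marrow that lack CD115, the receptor for macrophage colony-stimulating factor, at their surface. The libraries described here are the 4 CD115-CDP libraries of 12 in the series: 2 control and 2 HDAC3-KO, chosen by the cell type and genotype in their labels, all others being LMPPs and bone marrow (BM) pDCs of the same genotypes. Control mice were Hdac3 fl/fl and HDAC3-KO mice were Hdac3 fl/fl CreERT2, both on the C57BL/6 background. Both genotypes were injected with tamoxifen for 5 days and the cells were sorted by FACS 7 days later, so the controls received the drug as well and differed by the Cre transgene. The Cre was expressed from the Rosa26 locus, which is active in nearly all cells, so HDAC3 was removed across the mouse and not only in CD115-CDPs. The paper reports that this systemic deletion was lethal within days. Effects of the state of the HDAC3-KO mice and of HDAC3 loss in the CD115-CDPs themselves cannot be told apart for any gene below. RNA was taken with a lysis buffer made for small numbers of cells. The labels do not say whether the 2 libraries of a genotype came from separate mice, so the spread between them may be technical.

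Common DC progenitors give rise to plasmacytoid DCs (pDCs), which make type I interferon, and to conventional DCs (cDCs), which present antigen. E2-2, encoded by Tcf4, drives the pDC fate, whereas ID2 and BATF3 belong to the program of type 1 cDCs (cDC1s). Precursors of pDCs are found mostly among the CD115-negative progenitors, which also retain a capacity for other myeloid and lymphoid fates. HDAC3 is a histone deacetylase that works as the enzyme of the NCoR corepressor complexes.

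Expression was given as FPKM, fragments scaled to transcript length and to the mapped fragments of the library, and read totals were not given, so the depth of the libraries is unknown. HDAC3-KO library 2 stood apart from the other libraries. It held 11288 genes above 0 FPKM against 13684 to 15173 in the other libraries, and 346 genes were listed at 0 in this library alone while all other libraries had at least 1 FPKM. Across the 10832 genes that reached 1 FPKM in 2 or more libraries, which were the genes tested, the SD of the gene-wise log2 difference was 1.16 between the HDAC3-KO libraries and 0.45 between the controls. Tubb5, a beta tubulin, alone measured 5255 and 22355 FPKM in HDAC3-KO libraries 1 and 2 and 4905 and 8758 FPKM in the controls. For these reasons, genes were ranked by a gap, which is the distance on the log2(FPKM + 0.5) scale between the nearest HDAC3-KO and control libraries, set to 0 where the groups overlap. Counts with HDAC3-KO library 1 alone are given beside a list or, for the other lists, together before the comparison with LMPPs and BM pDCs. List counts cover the members that passed the filter, and a member can pass through the libraries of 1 genotype alone.

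Flt3 and Kit, genes of the label, were present, and so were transcripts of some surface proteins that the cells are defined as lacking. In the values that follow, control libraries 1 and 2 stand before the word "against" and HDAC3-KO libraries 1 and 2 after it. Flt3, the growth factor receptor of DC progenitors, measured 352 and 310.2 FPKM in the controls and 333 and 217 FPKM in HDAC3-KO cells. Kit, the stem cell factor receptor, measured 17.6 and 21.2 against 34.3 and 16.7 FPKM. The groups overlapped for both genes. Csf1r mRNA, which encodes CD115 itself, was present at 139 and 95.3 against 64.7 and 21.5 FPKM although the sort excluded cells with surface CD115. Il7r and Itgax, which encode CD127 and CD11c, also passed the filter, although the paper defines these progenitors as negative for both. Each lay below both controls in HDAC3-KO cells. Itgam, a myeloid integrin, measured 31.9 and 21.1 against 21.4 and 14.5 FPKM, and Ly6g of neutrophils measured 1.01 and 0.2 against 1.14 and 0 FPKM. Other neutrophil transcripts were present, with S100a8 at 291 and 97.2 against 99.9 and 44.6 FPKM, and the 18 late granule and neutrophil genes summed to 726 and 353 against 439 and 250.2 FPKM. Cd3e, a defining marker of T cells, was near 0 in all 4 libraries, with at most 0.21 FPKM. Of 14 erythroid genes measured, 7 passed the filter, and the summed level of the 14 was 151 and 173 FPKM in controls against 205 and 229 FPKM in HDAC3-KO cells. Of the 7, 4 lay below both controls and 2 above, so the sum does not stand for the list. Car2, a carbonic anhydrase, was the largest upward member (27.1 and 44.4 against 78.4 and 144 FPKM) and is part of that sum. It was also present in control LMPPs, at 382 and 386 FPKM. Tfrc, Hba-a1, Hba-a2 and Hbb-bs lay below the controls. The globin copies cannot be told apart with certainty. In bulk libraries like these, fewer cells of a kind and less RNA per cell cannot be told apart.

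Hdac3 itself measured 58.2 and 39.6 against 12.1 and 0.93 FPKM, so both HDAC3-KO libraries lay below both controls. Fragments from transcripts that lack only the deleted exon can still be counted here, and the remaining level does not measure intact HDAC3. Of 6 genes of the HDAC3 complex, HDAC3 included, 2 lay below both controls, 1 above and 3 overlapped, and with library 1 alone there were 3 below and 3 above. Gps2, a subunit of the complex, lay below the controls at 77.2 and 76.2 against 66.4 and 55.5 FPKM. Tbl1xr1, another subunit, lay above them at 11.1 and 13.6 against 14.6 and 38.4 FPKM. Ncor1 measured 20.6 and 23.8 against 15.1 and 20.7 FPKM and overlapped between the groups. Among 10 other histone deacetylases, 3 lay below and 1 above the controls in both HDAC3-KO libraries, and with library 1 alone 3 below and 5 above. Over all tested genes, 28.4% lay below and 15.2% above in both libraries. Hdac9, a class IIa enzyme, was the lowest by gap, at 23.98 and 21.8 against 10.8 and 12.8 FPKM.

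No gene passed the test across all genes. Limma on log2(FPKM + 0.5) called 0 of 10832 genes at an adjusted p under 0.05 in either direction, and the smallest adjusted p was 0.107, for Ly6d. At an unadjusted p under 0.05, 332 genes (3.06%) were higher and 644 (5.95%) were lower in HDAC3-KO cells. The values below are therefore described by where the libraries lie. Both HDAC3-KO libraries lay above both controls for 1647 genes (15.2%) and below both for 3080 (28.4%), and these percentages are the background for every list. The gap was at least 1, which is at least 2-fold on this scale, upward for 133 genes (1.23%) and downward for 323 (2.98%). With HDAC3-KO library 1 alone, 34.2% of genes lay above and 46.3% below both controls. The excess of lower genes depended on the scaling, since 65.2% of the non-overlapping genes were lower as deposited, 54.3% after rescaling the libraries by their median ratios and 49.9% after quantile normalization. The median log2 difference of all tested genes was −0.16, −0.06 and 0.02 under these scalings, and the medians of lists should be read against it.

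**Figure D1:**
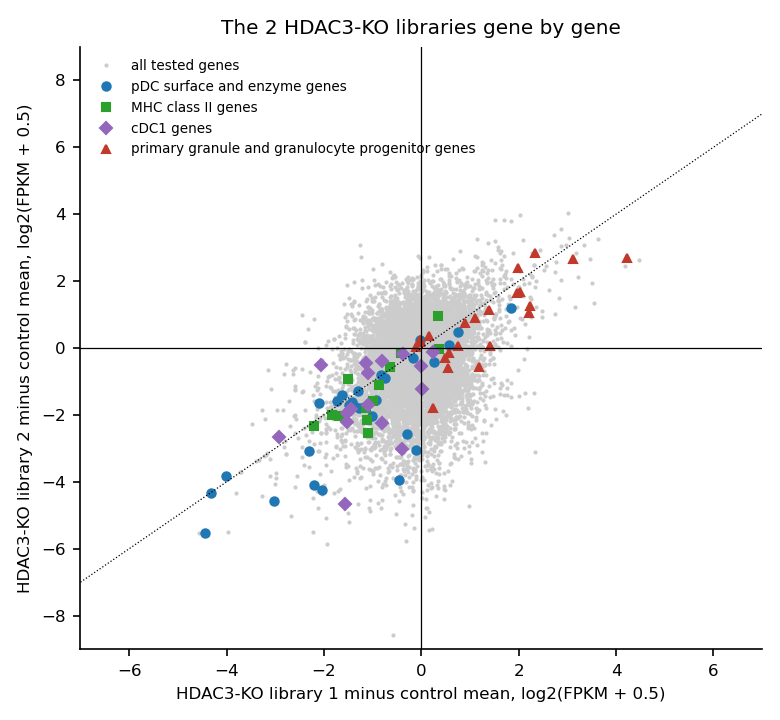
Difference from the mean of the 2 controls in HDAC3-KO library 1 (x axis) and HDAC3-KO library 2 (y axis), in log2(FPKM + 0.5), for each of the 10832 tested genes (grey) and for the members of 4 gene lists (coloured); the dotted line marks equal differences. Genes of the pDC, MHC class II and cDC1 lists lie mostly in the lower left and primary granule genes mostly in the upper right, while the grey cloud is taller than it is wide.

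The largest upward gaps belonged to genes of varied function. Serpina3g, a serine protease inhibitor, measured 16.2 and 17.2 against 125 and 141 FPKM, a log2 difference of 2.96 (SE 0.26) and a gap of 2.83. Its neighbour Serpina3f followed with 2.95 and 1.69 FPKM against 27.2 and 22.5 FPKM, and since these genes are close copies, fragments could be shared between them. Stfa1, a cysteine protease inhibitor of myeloid cells with close copies of its own, was listed at 0 in both controls and measured 3.17 and 5.39 FPKM in HDAC3-KO cells.

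Ifitm1, an interferon-induced membrane protein that is also abundant in progenitors, was the most abundant of the leading upward genes. It measured 92.4 and 143 against 1041 and 821 FPKM, with a log2 difference of 3.003 (SE 0.32). Mt1, a metallothionein that binds zinc and copper, stood at 4.9 and 10.9 against 63.6 and 76.5 FPKM. Gimap4, a GTPase of lymphocytes, was found at 0.48 and 2.0 against 18.8 and 14.6 FPKM. The remaining genes among the 10 largest upward gaps were Rapsn, which clusters acetylcholine receptors at the muscle synapse, BC049352, Trem3 and Tsc22d3, with gaps of 2.64, 2.38, 2.38 and 2.31.

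The largest downward gap belonged to Atp1b1, the beta subunit of the sodium pump, at 25.8 and 19.5 against 0.55 and 0 FPKM. Upk1b, a tetraspanin, was comparably low with 30.7 and 16.4 FPKM against 0.47 and 0 FPKM. Ifi205, an interferon-inducible protein of the p200 family, measured 54.95 and 49.8 against 2.89 and 0.67 FPKM. Of the 10 genes with the largest downward gaps, Ly6d and Ifi205 were the 2 listed above 0 in both HDAC3-KO libraries, and Ly6d measured 577 and 460.1 against 31.3 and 36.03 FPKM. Ly6d encodes a surface protein that marks early B-cell and pDC progenitors and lies at chr15:74762056-74763567 in mm10. Its log2 difference of −3.92 had an SE of 0.26, and the HDAC3-KO libraries were closer to each other than the controls were.

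Several of the lowest genes were listed at 0 in both HDAC3-KO libraries, so that their gap is set by the constant added before the logarithm. They were Cd209a, a lectin of DCs (13.7 and 6.59 FPKM in controls), Egfl8, a secreted protein with EGF-like domains (6.2 and 5.96 FPKM), Fkbp1b, an immunophilin (8.58 and 4.2 FPKM), Rhot2, a GTPase of the mitochondrial outer membrane (3.94 and 5.7 FPKM), and Stbd1, a glycogen-binding protein (3.67 and 5.6 FPKM). Havcr1, a phosphatidylserine receptor, was listed at 0 in HDAC3-KO library 2 only and at 0.22 FPKM in library 1. Of the 323 genes with a downward gap of at least 1, 121 were listed at 0 in HDAC3-KO library 2 and 17 in both HDAC3-KO libraries. The lower number of genes detected in library 2 moves with this end of the ranking, and its part in it was not tested. At the other end, 2 of the 133 upward genes were listed at 0 in both controls.

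**Figure D2:**
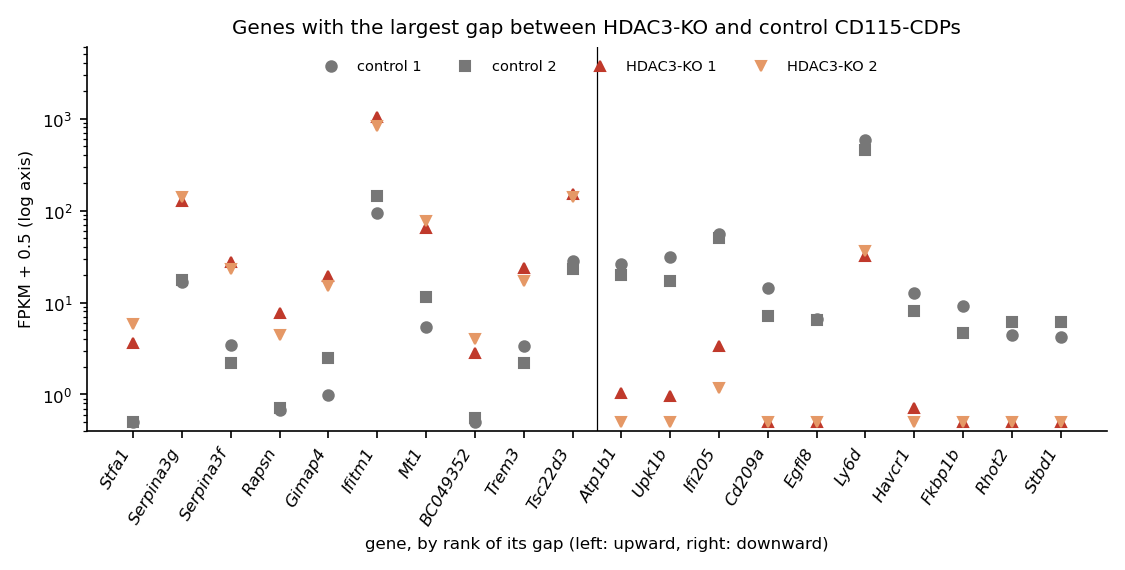
FPKM + 0.5 on a logarithmic axis in each of the 4 CD115-CDP libraries for the 10 genes with the largest upward gap (left of the line) and the 10 with the largest downward gap (right), in order of rank. Controls are grey and HDAC3-KO libraries are coloured, and no control symbol lies within the HDAC3-KO range for any of the 20 genes because the genes were ranked by that gap.

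Genes of the pDC surface and enzyme list were mostly lower. Of 31 listed genes measured, 28 passed the filter, 21 lay below both controls in both HDAC3-KO libraries, 2 lay above and 5 overlapped, with a median log2 difference of −1.53. With HDAC3-KO library 1 alone, 22 lay below and 3 above. Enzymes and secretory proteins were among the lower members. Hs3st1, a heparan sulfate sulfotransferase, measured 11.5 and 13.5 against 1.08 and 0.04 FPKM. Upb1, an enzyme of pyrimidine breakdown, measured 33.5 and 26.01 against 6.51 and 9.16 FPKM, and Nucb2, a calcium-binding protein of the secretory pathway, measured 77.9 and 85.8 against 24.3 and 26.9 FPKM. For these genes the HDAC3-KO values were under the lower control by a gap of 1 or more.

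Not all members of the list were lower. Ly6a, which encodes Sca-1 and also marks stem cells, measured 36.2 and 33.4 against 127 and 79.6 FPKM, and Plac8, a gene of many progenitors, measured 3626 and 3205 against 5781 and 4728 FPKM. Both lay above the controls. Dntt, the terminal transferase of lymphoid progenitors, overlapped between the groups at 713 and 459.9 against 690.4 and 425 FPKM, as did Lair1, an inhibitory receptor, at 23.3 and 16.4 against 29.1 and 20.7 FPKM. Ly6c1 and Ly6c2, near copies whose fragments could be split between them, were both lower, with gaps of −2.16 and −1.84.

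Transcription factors of pDCs were lower by a smaller amount. Of 14 tested, 10 lay below both controls and 0 above, with a median log2 difference of −0.61, and with library 1 alone 12 lay below and 0 above. Tcf4 measured 58.3 and 69.8 against 32.9 and 49.9 FPKM, a gap of −0.22. Larger gaps were found for Mycl, a MYC family member of DCs (17.2 and 14.3 against 2.04 and 0 FPKM), and for Runx2, which acts in pDC maturation and egress (133 and 117 against 58.6 and 36.1 FPKM). Irf7, the driver of type I interferon production in pDCs, stood at 63.7 and 45.97 against 25.1 and 16.9 FPKM. Ikzf1, Ets1, Bmi1 and Tsc22d1 overlapped between the groups.

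Genes of the cDC1 program were lower as well. Of 22 listed genes, 16 passed the filter, of which 13 lay below both controls and 0 above, with a median log2 difference of −1.33. The counts with HDAC3-KO library 1 alone were 13 below and 1 above. With both libraries, 12 lay below and 0 above after median-ratio rescaling. After quantile normalization 11 lay below and 1 above, with a median of −0.88. Batf3, a transcription factor required for cDC1s, lies at chr1:191098414-191108943 in mm10. It measured 23.4 and 23.2 against 2.65 and 3.25 FPKM, a log2 difference of −2.79 (SE 0.37) and a gap of −2.66. Each pair of libraries was tight, and the groups were far apart.

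Id2, the inhibitor of E proteins that opposes E2-2, was also lower in HDAC3-KO cells, at 104 and 121 against 40.8 and 31.7 FPKM. Nfil3, which acts upstream of Id2 in cDC1 development, measured 62.7 and 56.4 against 27.8 and 18.1 FPKM. Irf8, needed by both cDC1s and pDCs, was abundant and lower, at 1696 and 1331 against 864 and 318 FPKM. It is counted in the pDC factor, cDC1 and myeloid factor lists alike. The factors Zfp366 and Zbtb46 were expressed at a low level and were below both controls, at 2.13 and 1.56 against 0.31 and 0 FPKM and 4.4 and 4.88 against 0.74 and 3.11 FPKM. Clec9a, the receptor of cDC1s for dead cells, measured 20.4 and 12.5 against 7.25 and 9.43 FPKM, with a gap of −0.39. Cd24a, Ly75 and Wdfy4 overlapped, and Xcr1 remained under 1 FPKM in all 4 libraries.

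The list of cDC2 and shared cDC genes was mixed. Of 18 tested, 9 lay below both controls and 3 above, with a median log2 difference of −0.51. Cst3, the protease inhibitor cystatin C and one of the most abundant transcripts of DCs, measured 3053 and 1971 against 716 and 686 FPKM. Cx3cr1, the fractalkine receptor, measured 41.96 and 37.9 against 11.2 and 13.1 FPKM. Dpp4, a peptidase also known as CD26, and Clec10a, a galactose lectin, were lower with gaps of −1.34 and −1.08. In the other direction, the costimulatory ligand Cd80 was low in controls (0.56 and 0 FPKM) and measured 2.13 and 9.55 FPKM in HDAC3-KO cells, and its partner Cd86 measured 4.34 and 4.34 against 6.68 and 22.5 FPKM. For both ligands the higher value was that of library 2. Ccr7 and Sirpa overlapped.

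MHC class II genes were mostly lower. Of 14 listed, 13 passed the filter, 11 lay below both controls and 0 above, with a median log2 difference of −1.29. With library 1 alone 11 lay below and 1 above. With both libraries, 10 lay below and 1 above after median-ratio rescaling, and 11 below and 1 above after quantile normalization. The classical chains were among the lowest members. H2-Aa measured 198 and 161 against 38.5 and 34.95 FPKM. H2-Ab1 measured 318 and 309 against 87.8 and 78.3 FPKM, and H2-Eb1 measured 58.5 and 45.2 against 15.7 and 12.1 FPKM. In each of these genes the HDAC3-KO libraries were close to each other and far from the controls.

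Proteins that load class II molecules followed. Cd74, the invariant chain, measured 839 and 911 against 306 and 456 FPKM. H2-DMb2, a chain of the peptide exchange factor H2-DM, measured 47.5 and 45.4 against 20.8 and 12.99 FPKM. Ciita, the coactivator that class II promoters depend on, was low in all libraries, at 4.89 and 5.81 against 2.21 and 0.8 FPKM, and was also below the controls. H2-Oa, a chain of H2-O that restrains H2-DM, did not follow the list, with 41.2 and 27.4 against 43.4 and 32.7 FPKM, and Rfx5, a DNA-binding factor of class II promoters, measured 7.22 and 4.25 against 7.19 and 11.2 FPKM. Both overlapped.

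The promoters of class II genes carry a conserved set of boxes close to the start site, of which the last is the Y box, bound by NF-Y. The letters CTGATTGG, on either strand, were searched in the 250 bases before each start site of the RefSeq promoters of GRCm38.p6. They were present in 3.83% of 32851 promoters and in 4 of the 11 class II genes that had a promoter in the table, H2-Aa, H2-Eb1, H2-Eb2 and H2-Oa. A gene was counted when any of its promoters matched, whereas the percentage counts single promoters, so these shares differ in unit. The 150 bases before the start site are given for 3 of these to set 2 genes that were lower beside H2-Oa, which overlapped. The capitals mark the match, and it begins 51, 62 and 46 bases before the start site. The regions are chr17:34287824-34287973 on the minus strand, chr17:34305717-34305866 on the plus strand and chr17:34092229-34092378 on the plus strand.
H2-Aa: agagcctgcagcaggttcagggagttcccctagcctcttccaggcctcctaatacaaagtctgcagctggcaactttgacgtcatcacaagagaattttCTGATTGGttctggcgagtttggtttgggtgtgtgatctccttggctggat
H2-Eb1: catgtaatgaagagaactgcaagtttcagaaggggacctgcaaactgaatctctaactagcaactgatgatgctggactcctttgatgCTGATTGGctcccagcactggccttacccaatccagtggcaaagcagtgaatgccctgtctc
H2-Oa: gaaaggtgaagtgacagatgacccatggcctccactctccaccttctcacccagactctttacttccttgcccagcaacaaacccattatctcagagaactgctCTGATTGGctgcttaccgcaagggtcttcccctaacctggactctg

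A match does not show that the site was bound. The same letters stood in promoters of genes with a gap of −2.05, −1.5 and 0.

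MHC class I genes differed by less. Of 13 tested, 8 lay below both controls and 0 above, with a median log2 difference of −0.42. The count of lower genes was 5 after median-ratio rescaling and 10 after quantile normalization. Tapbp, which bridges class I molecules to the peptide transporter, had the largest gap, with 271 and 315 against 182 and 154 FPKM. The light chain B2m stood at 3349.8 and 3233 against 3042 and 2349 FPKM. H2-K1 and H2-D1 overlapped.

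Of 25 interferon-stimulated genes tested, 14 lay below both controls and 1 above, with a median log2 difference of −0.85. With library 1 alone 19 lay below and 3 above. Ifi27l2a, an interferon-induced mitochondrial protein, was the most abundant of the lower members after Bst2, at 345 and 165 against 54.6 and 8.17 FPKM. Cmpk2, a nucleotide kinase, measured 33.4 and 37.2 against 12.1 and 10.3 FPKM, and Zbp1, a sensor of nucleic acids, measured 25.8 and 17.7 against 7.66 and 4.29 FPKM. Classical antiviral genes were expressed at a low level throughout. Ifit1 measured 4.41 and 4.11 against 2.46 and 1.66 FPKM, Isg15 measured 15.4 and 10.2 against 8.18 and 4.15 FPKM, and Rsad2, at 4.72 and 5.47 against 5.94 and 5.72 FPKM, was the member above the controls, by a gap of 0.06. Ifit3, Rtp4 and Xaf1 overlapped, with their highest value in library 2.

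Interferon-stimulated response elements hold a repeated TTTC core, here searched as TTTC, any 2 bases and TTTC on either strand. It was found in the 250 bases before the start site in 2.98% of all promoters and in 8 of the 17 listed genes that had a promoter in the table. Here too the percentage counts single promoters, and a gene was counted when any of its promoters matched. Ifit1 and Isg15 are shown because both were lower and hold more than 1 match, in capitals, with overlapping matches joined. The 150 bases are chr19:34640739-34640888 on the plus strand and chr4:156200819-156200968 on the minus strand.
Ifit1: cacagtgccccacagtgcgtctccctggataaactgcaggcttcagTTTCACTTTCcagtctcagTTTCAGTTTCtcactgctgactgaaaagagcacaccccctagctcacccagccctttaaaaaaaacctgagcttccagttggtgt
Isg15: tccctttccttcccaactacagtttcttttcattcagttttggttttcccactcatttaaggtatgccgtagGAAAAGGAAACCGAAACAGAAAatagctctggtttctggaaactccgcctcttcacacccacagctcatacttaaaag

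Rsad2, the member above the controls, was among the 8 genes with a match, as were Oas3 and Stat2, which overlapped.

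Genes of primary granules and granulocyte progenitors were mostly higher. All 22 listed genes passed the filter, 13 lay above both controls and 0 below, with a median log2 difference of 0.78. With HDAC3-KO library 1 alone 19 lay above and 0 below. The counts were 14 above and 0 below after both median-ratio rescaling and quantile normalization. Ms4a3, a membrane protein of granulocyte and monocyte progenitors that lies at chr19:11629499-11640851 in mm10, had a gap of 2.21 and measured 3.71 and 7.67 against 109 and 37.2 FPKM, which differed between the HDAC3-KO libraries as well. Nkg7, a granule membrane protein of cytotoxic and myeloid cells, measured 46.7 and 65.95 against 281 and 399.8 FPKM. Trem3, a receptor of myeloid cells, measured 2.83 and 1.71 against 23.01 and 16.8 FPKM.

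Proteases and detoxifying enzymes of granulocytes lay on the same side. Elane, neutrophil elastase, measured 54.2 and 52.9 against 252 and 129 FPKM. The glutathione transferases Mgst1 and Gstm1 measured 5.88 and 5.11 against 23.4 and 31.1 FPKM for Mgst1 and 43.7 and 48.4 against 182 and 144 FPKM for Gstm1. Hp, haptoglobin, had 16.9 and 16.2 against 78.2 and 34.4 FPKM. Prtn3, proteinase 3, measured 225 and 239 against 619 and 244 FPKM, so that library 2 lay above the controls by a gap of only 0.02. Prss57, another serine protease of these granules, overlapped at 41.8 and 37.2 against 46.7 and 10.9 FPKM.

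**Figure D3:**
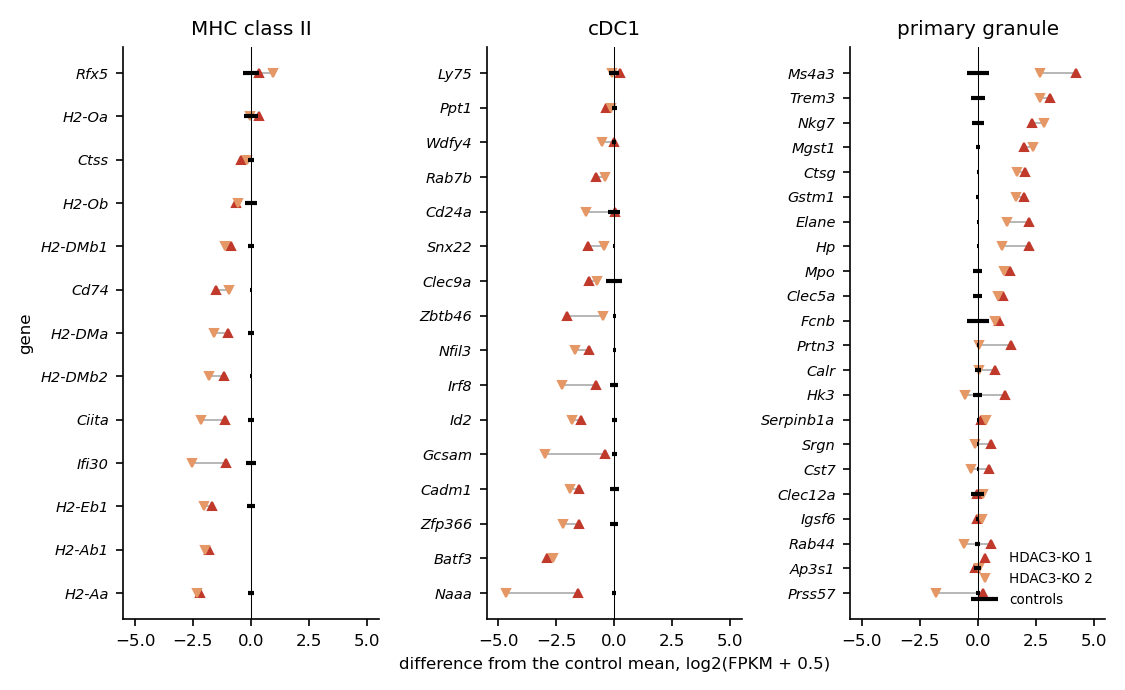
Difference of each HDAC3-KO library from the control mean in log2(FPKM + 0.5) for the tested members of the MHC class II, cDC1 and primary granule lists; triangles are HDAC3-KO libraries 1 and 2 joined by a line, and black bars span the controls. Most class II and cDC1 members lie left of the controls and 13 of 22 primary granule members lie right of them in both libraries, with the largest distances between the HDAC3-KO libraries for Naaa, Gcsam and Prss57.

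Genes of later granules lay on both sides. Of 16 tested, 3 lay above both controls and 4 below, with a median log2 difference of −0.38. Chil3 and Padi4, which encode a chitinase-like protein and a peptidylarginine deiminase, were higher, at 16.0 and 5.66 against 39.2 and 23.1 FPKM for Chil3 and 20.9 and 18.8 against 84.5 and 36.6 FPKM for Padi4. Camp, the cathelicidin of secondary granules, was lower at 56.9 and 35.4 against 14.97 and 3.6 FPKM, and Anxa1, an annexin of neutrophils and macrophages, at 86.1 and 94.9 against 45.8 and 48.3 FPKM. S100a8 and S100a9, markers of mature neutrophils, overlapped, with 291 and 97.2 against 99.9 and 44.6 FPKM for S100a8 and 111 and 29.5 against 39.7 and 49.1 FPKM for S100a9. Control library 1 held the highest values of both.

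Genes of monocytes and macrophages were split. Of 18 tested, 8 lay below both controls and 5 above, with a median log2 difference of −0.696. Lgals3, galectin 3, measured 149.6 and 113 against 18.6 and 13.9 FPKM, a gap of −2.57. Ms4a6c, a membrane protein of monocytes, measured 323 and 322 against 109 and 124 FPKM. The members that were higher included Lyz2, lysozyme, at 191 and 81.6 against 507 and 446 FPKM, and the chemokine receptor Ccr1, at 1.9 and 0.84 against 8.14 and 7.42 FPKM. Among 11 myeloid transcription factors tested, 6 lay below and 2 above. Spi1, which encodes PU.1, measured 381 and 314 against 292 and 137 FPKM, Egr1, an early response factor of monocyte development, measured 10.2 and 10.6 against 4.57 and 2.23 FPKM, and Cebpa, the regulator of granulocyte and monocyte commitment, measured 3.34 and 3.33 against 4.24 and 5.14 FPKM. Cebpa lay above both controls by a gap of 0.304.

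The mast cell, basophil and eosinophil list held 14 genes of which 8 passed the filter, with 2 below both controls and 1 above. The member above was Mcpt8, a basophil protease, at 6.28 and 3.62 against 16.8 and 23.01 FPKM. Prg2, the major basic protein of eosinophils, was lower at 3.93 and 9.86 against 1.1 and 0 FPKM. Selp, P-selectin, was the 1 member of 4 tested megakaryocyte genes whose groups did not overlap, at 0.24 and 0.66 against 5.77 and 4.97 FPKM, while Pf4 stayed at or under 0.27 FPKM in all libraries.

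Receptors differed one by one. Of 19 hematopoietic growth factor receptors tested, 6 lay below both controls and 3 above, near the 28.4% and 15.2% of all tested genes. The sign of their median changed under quantile normalization, from −0.296 to 0.01. Il7r, the receptor of the lymphoid cytokine IL-7, measured 14.9 and 10.5 against 1.64 and 2.75 FPKM. Csf2ra, the alpha chain of the GM-CSF receptor, measured 74.9 and 71.7 against 35.5 and 23.8 FPKM. Il1r1, the IL-1 receptor, was higher at 4.6 and 5.58 against 20.1 and 20.4 FPKM. Of 11 chemokine receptors tested, 5 lay below and 2 above, the latter being Ccr1 and Cxcr4, the receptor that holds progenitors in the marrow (14.8 and 20.3 against 35.1 and 31.7 FPKM).

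Among 14 Siglec, Fc receptor, TREM and adaptor genes tested, 6 lay below both controls and 4 above. Fcer1g, the signaling chain of Fc receptors, was abundant and lower, at 791 and 723 against 271 and 228 FPKM. Siglecg, an inhibitory sialic acid receptor, measured 30.9 and 26.2 against 7.11 and 0 FPKM. Of 10 C-type lectin receptors tested, 5 lay below and 2 above. The lectins Clec4d and Clec4e, activating receptors of myeloid cells that work as partners, were the 2 higher members, at 0.39 and 0.07 against 3.05 and 3.46 FPKM for Clec4d and 0.03 and 1.18 against 5.71 and 9.34 FPKM for Clec4e. Clec4b1, a lectin of DCs, was lower at 2.42 and 1.92 against 0.23 and 0 FPKM.

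Lymphoid genes were lower or overlapped, with exceptions. Of 16 lymphoid priming genes tested, 7 lay below both controls and 2 above, with a median log2 difference of −0.33. Cnn3, an actin-binding calponin, measured 351 and 281 against 34.2 and 33.5 FPKM, a log2 difference of −3.2 (SE 0.25). Its adjusted p was 0.144 (limma). The 2 higher members were Ltb, lymphotoxin beta, at 9.35 and 7.74 against 41.9 and 41.1 FPKM, and Il2rg, the common gamma chain of cytokine receptors, at 44.05 and 61.5 against 124 and 267 FPKM.

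Of 17 B-cell genes measured, 9 passed the filter, 6 lay below both controls and 0 above, with a median log2 difference of −1.67. Blnk, the adaptor of B-cell receptor signaling that pDCs also express, measured 45.7 and 34.8 against 5.14 and 10.8 FPKM. Blk, a kinase, measured 25.1 and 13.2 against 6.75 and 4.26 FPKM, and Bank1, a scaffold, measured 1.64 and 2.24 against 0.12 and 0 FPKM. Cd79b was expressed at 81.5 and 81.4 against 72.5 and 105 FPKM and overlapped. Of 6 T-cell and NK-cell genes tested, 3 lay below and 0 above, with Cd7, a surface protein of early lymphoid cells, at 285 and 151 against 116 and 86.7 FPKM. Summed over the list, B-cell genes measured 293 and 223 FPKM in controls and 149 and 196 FPKM in HDAC3-KO cells.

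Stem and multipotent progenitor genes lay on both sides of the controls. Of 18 tested, 6 lay below both controls, 5 above and 7 overlapped, with a median log2 difference of −0.04 as deposited, 0.05 after median-ratio rescaling and 0.20 after quantile normalization. Cd34 measured 233 and 236 against 239 and 246 FPKM, and Hoxa9 measured 24.3 and 25.03 against 22.5 and 29.9 FPKM. Apart from Ly6a, the largest gap was that of Procr, the protein C receptor of stem cells, which was low throughout with 0.34 and 0.8 against 2.2 and 2.65 FPKM.

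**Figure D4:**
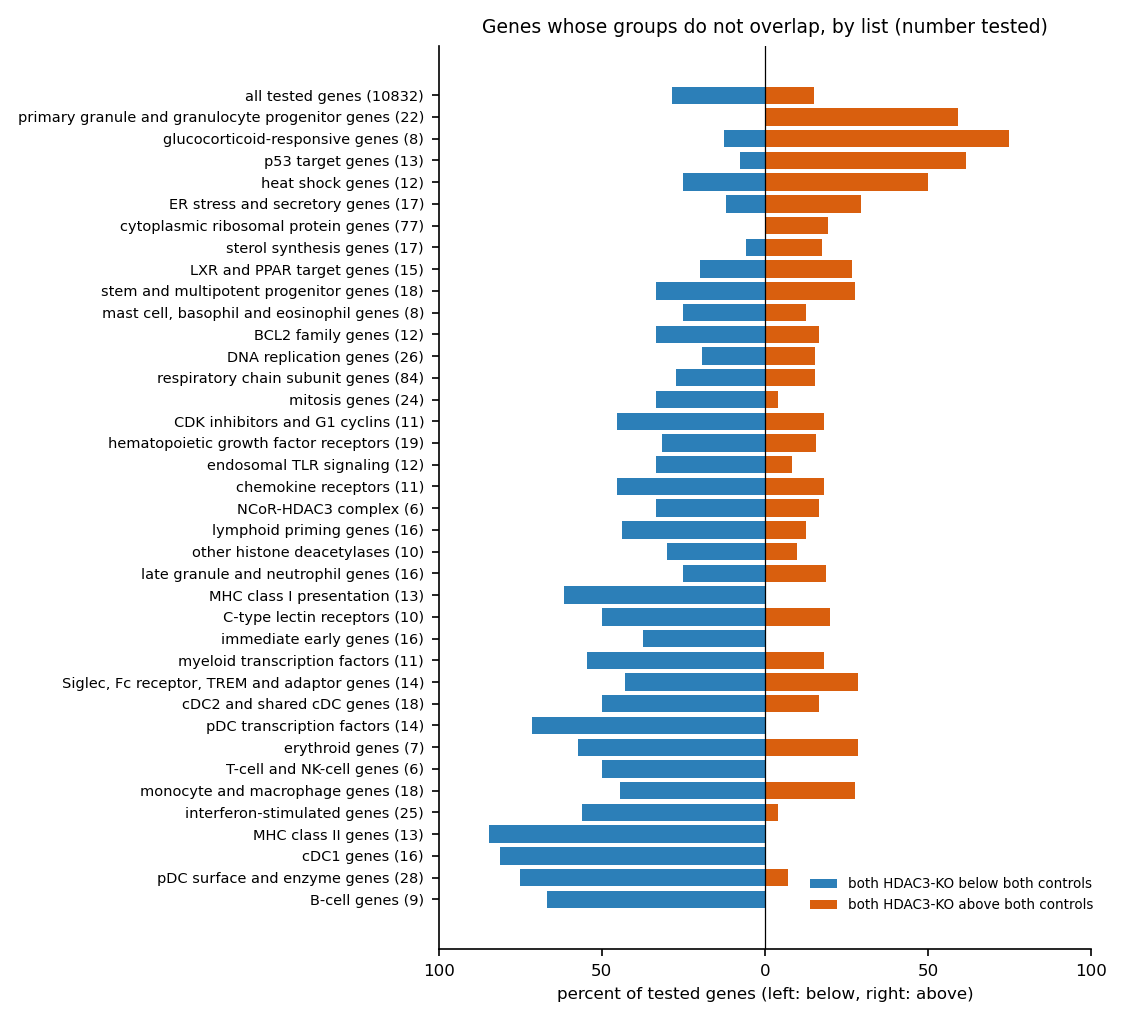
Share of tested genes with both HDAC3-KO libraries below both controls (bars to the left, percent) and above both (bars to the right, percent), for each list with at least 6 tested genes and for all 10832 tested genes at the top, ordered by the median log2 difference. All genes stand at 28.4% below and 15.2% above; the longest bars to the left are those of MHC class II and cDC1 genes and the longest to the right that of 8 glucocorticoid-responsive genes.

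Proliferation genes mostly overlapped between the groups. Of 26 DNA replication genes tested, 5 lay below both controls and 4 above, with a median log2 difference of −0.101 that was 0.01 after median-ratio rescaling. Pcna, the sliding clamp, measured 289 and 304 against 219 and 235 FPKM. Of 24 mitosis genes tested, 8 lay below and 1 above, with a median of −0.18, where all tested genes stood at 28.4% below and 15.2% above. With library 1 alone 15 mitosis genes lay below and 3 above, against 46.3% and 34.2% of all tested genes. The median of the mitosis list was −0.33 in library 1 and −0.17 in library 2, against −0.08 and −0.23 for all tested genes. Mki67 measured 29.7 and 44.2 against 20.1 and 62.9 FPKM and overlapped.

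Some regulators of G1 had gaps of 1 or more. Ccnd3, cyclin D3, measured 676 and 626 against 251 and 44.9 FPKM, whereas Ccnd1 and Ccnd2 overlapped. Cdkn2c, the CDK4 and CDK6 inhibitor p18, was lower at 8.18 and 13.6 against 1.88 and 0 FPKM. Cdkn1a, which encodes the inhibitor p21, was higher at 66.6 and 58.8 against 157 and 142 FPKM. Myc measured 115 and 155 against 405 and 303 FPKM, and its groups were separated by a gap of 0.97.

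Of 13 p53 target genes tested, 8 lay above both controls and 1 below, with a median log2 difference of 0.55. With library 1 alone 11 lay above and 1 below. Phlda3, a repressor of AKT, measured 10.5 and 9.6 against 20.5 and 22.1 FPKM, and Ccng1, cyclin G1, measured 29.9 and 29.9 against 41.8 and 62.98 FPKM. Mdm2, the ubiquitin ligase that limits p53, was the member below, by a gap of −0.04, and was not below after either rescaling. Bax overlapped. Of 12 BCL2 family genes tested, 4 lay below and 2 above, near the 28.4% and 15.2% of all tested genes. Bcl2 itself measured 148 and 152 against 78.9 and 89.1 FPKM.

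Stress genes lay on both sides of the controls. Of 12 heat shock genes tested, 6 lay above both controls and 3 below, with a median log2 difference of 0.34. The higher members were chaperones of the cytosol and mitochondria, such as Hspd1 at 128 and 166 against 316 and 394 FPKM, Hsp90ab1 at 663 and 799.5 against 1392 and 1293 FPKM, and Hspa8 at 2226 and 2015 against 3530.4 and 3765 FPKM. Hspa1a, an inducible member, was lower at 136 and 102 against 71.95 and 29.3 FPKM. Dnajb1, also inducible, was lower at 107 and 93.7 against 59.1 and 53.4 FPKM. Hspa1b, Hsph1 and Bag3 overlapped, so the inducible members were not lower as a set. Of 16 immediate early genes, which respond within minutes to handling, 6 lay below and 0 above, Btg2 and Egr1 having the largest gaps, −0.97 and −1.07.

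Of 8 glucocorticoid-responsive genes tested, 6 lay above both controls and 1 below, with a median log2 difference of 0.76. Tsc22d3, which encodes the glucocorticoid-induced leucine zipper GILZ, measured 27.7 and 22.7 against 151 and 139 FPKM, a log2 difference of 2.51 (SE 0.26). Ddit4, an inhibitor of mTOR signaling, measured 1.81 and 1.61 against 24.6 and 8.07 FPKM. Fkbp5, an immunophilin of the glucocorticoid receptor, measured 9.01 and 12.6 against 16.6 and 21.1 FPKM. Sgk1, a kinase, went the other way with 4.96 and 2.47 against 0.77 and 0 FPKM. For these genes too, the state of the mice and the loss of HDAC3 in the cells cannot be told apart.

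Of 15 tested targets of the nuclear receptors LXR and PPAR, which work with NCoR complexes, 4 lay above both controls and 3 below in both libraries. With library 1 alone 11 lay above and 3 below, where 34.2% of all tested genes lay above. The list's median difference was 0.86 in library 1 and −0.64 in library 2. Abcg1, a cholesterol exporter, measured 28.5 and 38.03 against 71.1 and 225 FPKM. Abca1, a related exporter, overlapped at 2.86 and 2.69 against 5.49 and 0.42 FPKM. Of 17 sterol synthesis genes tested, 3 lay above and 1 below, and of 17 ER stress and secretory genes, 5 above and 2 below, with Trib3, a pseudokinase of the stress response, at 0.53 and 0 against 6.23 and 2.61 FPKM. Endosomal Toll-like receptor genes had 4 of 12 below and 1 above, and Tlr7 overlapped at 9.34 and 7.76 against 7.32 and 11.5 FPKM. Of 77 cytoplasmic ribosomal protein genes tested, 15 lay above and 0 below, but library 1 alone put 70 above, and the list's median difference was 0.58 in library 1 and −0.22 in library 2. Of 84 respiratory chain genes, assembly factors such as Ndufaf1 included, 13 lay above and 23 below, near the 15.2% and 28.4% of all tested genes. The largest gaps among them were in tissue-restricted subunits of cytochrome c oxidase, Cox6a2 (−1.39), Cox6b2 (−1.13) and, upward, Cox4i2 (1.75).

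With HDAC3-KO library 1 alone, the remaining lists compared as follows with both controls. Over all tested genes, 46.3% lay below and 34.2% above in that library, and several lists are near these shares, such as the 84 respiratory chain genes. The numbers tested are given with each list above, and 11 CDK inhibitors and G1 cyclins were tested. Among lineage and receptor lists there were 9 below and 7 above for cDC2 and shared cDC genes, 8 below and 2 above for MHC class I presentation, 4 below and 6 above for late granule genes, 11 below and 5 above for monocyte and macrophage genes, 10 below and 4 above for lymphoid priming genes, 8 below and 0 above for B-cell genes. There were 7 below and 9 above for stem and multipotent progenitor genes, 7 below and 9 above for hematopoietic growth factor receptors, 7 below and 4 above for chemokine receptors, 6 below and 8 above for Siglec, Fc receptor, TREM and adaptor genes, 5 below and 3 above for C-type lectin receptors. There were 6 below and 4 above for myeloid transcription factors, 6 below and 3 above for endosomal TLR signaling, 4 below and 3 above for mast cell, basophil and eosinophil genes, 4 below and 1 above for T-cell and NK-cell genes, 4 below and 3 above for erythroid genes and 0 below and 2 above for megakaryocyte and platelet genes. The sign of the list median turned from negative to positive in library 1 alone for 6 lists, at 0.44 for the Siglec list, 0.02 for the stem list, 0.01 for growth factor receptors, 0.48 for megakaryocyte genes, 0.18 for the other histone deacetylases and 0.02 for the HDAC3 complex. Among cell cycle and stress lists there were 10 below and 9 above for DNA replication genes. Heat shock genes had 4 below and 7 above, and glucocorticoid-responsive genes 1 below and 7 above. Immediate early genes had 7 below and 5 above, and respiratory chain genes 39 below and 24 above. CDK inhibitors and G1 cyclins had 6 below and 4 above, and BCL2 family genes 7 below and 4 above. Sterol synthesis genes had 4 below and 7 above, and ER stress and secretory genes 5 below and 8 above.

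The genes that stood out in CD115-CDPs were then looked up in LMPPs, which are earlier lymphoid-primed multipotent progenitors, and in BM pDCs, which have their own controls of the same genotypes. Each table was normalised separately, so only differences within a cell type are compared. Of the 323 genes with a downward gap of at least 1 in CD115-CDPs, 202 were tested in LMPPs, where 159 (78.7%) also lay below both controls and 4 (1.98%) above. Over all genes of the LMPPs 48.2% lay below and 17.6% above. In BM pDCs 266 were tested, of which 167 (62.8%) lay below and 66 (24.8%) above, against 52.1% and 27.2% of all genes there. Of the 133 upward genes, 47 of 110 tested in LMPPs (42.7%) lay above and 33 (30%) below, and of 71 tested in BM pDCs 44 (62.0%) lay above and 11 (15.5%) below.

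Some genes lay on opposite sides, and those named here are picked examples. Of the genes with a downward gap of at least 1, 24.8% of those tested in BM pDCs lay above there, against 27.2% of all genes. Other cDC genes were lower in both cell types, such as Cadm1 and Clec10a, with gaps of −2.43 and −2.05 in BM pDCs. Batf3 was near 0 in control BM pDCs, with 0.08 and 0.4 FPKM, and measured 4.84 and 7.17 FPKM in HDAC3-KO BM pDCs, whereas it was the more abundant in control CD115-CDPs. Id2 followed the same pattern in BM pDCs at 7.54 and 7.77 against 59.5 and 103 FPKM, as did Zfp366 at 0.02 and 0.04 against 1.44 and 1.66 FPKM. Lgals3 measured 30.4 and 24.2 FPKM in control and 96.8 and 154 FPKM in HDAC3-KO BM pDCs, and H2-DMb2 measured 22.9 and 25.3 against 68.4 and 89.5 FPKM. By contrast, Ly6d was lower in all 3 cell types, with 1513 and 1721 against 308 and 277 FPKM in BM pDCs, and Ms4a3 was higher in all 3. Whether the difference itself differs between cell types was not tested.

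**Figure D5:**
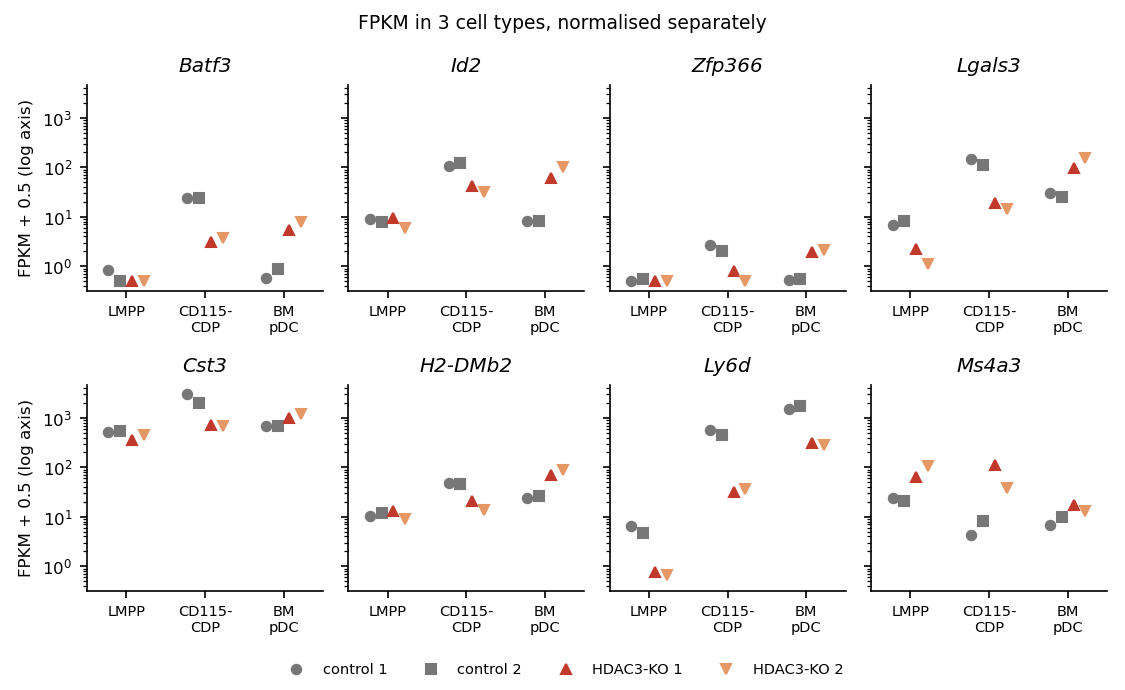
FPKM + 0.5 on a logarithmic axis for 8 genes in each of the 4 libraries of LMPPs, CD115-CDPs and BM pDCs, with controls in grey and HDAC3-KO libraries coloured. Batf3, Id2, Zfp366, Lgals3, Cst3 and H2-DMb2 lie below the controls in HDAC3-KO CD115-CDPs and above them in HDAC3-KO BM pDCs, whereas Ly6d lies below and Ms4a3 above in all 3 cell types. The 8 genes are picked examples, and other cDC genes such as Clec10a lay below the controls in both CD115-CDPs and BM pDCs.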

How the data were processed

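Expression was measured by RNA-seq. Bowtie2, RSEM and the mm10 build are listed in the processing notes of the submitters, and the FPKM values were deposited by the authors in 1 table for each cell type. The TPM, read count and mean columns that the BM pDC table also holds were not used. Gene symbols for CD115-CDPs came from the other deposited tables by gene identifier for 14813 of 16821 rows and from RefSeq for 1167. Another 837 rows were transcripts without a gene, and 4 more had no symbol. Coordinates came from RefSeq. Genes that reached 1 FPKM in 2 or more of the 4 libraries were tested with limma 3.58.1 (R 4.3.3) on log2(FPKM + 0.5), with a trend, two-sided, and Benjamini-Hochberg adjustment at 0.05. The fit was tested on simulated data with normal noise, which did not model the excess zeros of HDAC3-KO library 2. Tables and figures were made with Python 3.11.15, pandas 2.3.3, numpy 2.4.6 and matplotlib 3.10.9. The members, gene lists and tests were chosen with earlier results of these data known. Named genes were the markers and genes of the study, the 10 largest gaps in each direction, and in each list up to 4 members with the largest gap, the members it is named for and those against its direction. Genes named only as overlapping, or for a role in the text, were chosen after their values were seen. Alternatives were the pseudocount, the filter, the scaling, the trend, a replicate block and leaving out each library. Some genes of the lists are not reported here by name. Depth is unknown for CD115-CDPs because their table gives no read totals.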

Additional observations from a re-analysis of the deposited data

Results flagged for a closer look

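For some of the genes described above, both HDAC3-KO libraries lay on one side of both controls in CD115-CDPs and on the opposite side in another cell type. The difference between cell types was not tested, each cell type was normalised separately, and many of the gaps are small. In the parentheses the gap in CD115-CDPs comes first and the gap in the other cell type second, both on the log2(FPKM + 0.5) scale. Only genes on opposite sides are listed. Other members of the cDC lists were lower in both CD115-CDPs and BM pDCs, such as Cadm1 (−1.33 and −2.43) and Clec10a (−1.08 and −2.05). Lower in HDAC3-KO CD115-CDPs and higher in HDAC3-KO BM pDCs were the cDC and antigen presentation genes Batf3 (−2.66 and 2.57), Cd74 (−0.88 and 0.06), Ciita (−0.99 and 0.42), Clec9a (−0.39 and 1.93), Cst3 (−1.46 and 0.53), H2-DMb2 (−1.11 and 1.42), Id2 (−1.34 and 2.86), Naaa (−1.48 and 0.07), Zbtb46 (−0.44 and 2.26) and Zfp366 (−1.35 and 1.85). Lower in HDAC3-KO CD115-CDPs and higher in HDAC3-KO BM pDCs were the monocyte and myeloid genes Anxa1 (−0.83 and 0.88), Csf1r (−0.55 and 0.54), Cx3cr1 (−1.5 and 0.36), Egr1 (−1.07 and 1.41), Lgals3 (−2.57 and 1.66) and Spi1 (−0.1 and 1.02). The same held for Bcl2 (−0.73 and 0.75), Blk (−0.92 and 0.45), Btg2 (−0.97 and 0.12), Ccnd3 (−1.32 and 0.65), Cd7 (−0.38 and 0.13), Egfl8 (−3.69 and 0.24), Hdac9 (−0.74 and 0.08), Hspa1a (−0.51 and 0.49), Ifi205 (−3.89 and 0.82), Pcna (−0.3 and 0.06), Upb1 (−1.46 and 0.13), Zbp1 (−1.15 and 0.02) and Gps2 (−0.2 and 0.04). Higher in CD115-CDPs and lower in BM pDCs were Ccng1 (0.48 and −0.12), Cebpa (0.3 and −0.26), Mcpt8 (1.35 and −0.6), Mgst1 (1.9 and −0.48) and Phlda3 (0.94 and −0.02).

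Against LMPPs, genes higher in HDAC3-KO CD115-CDPs and lower in HDAC3-KO LMPPs were Car2 (0.81 and −0.89), Ccng1 (0.48 and −0.1), Cd34 (0.02 and −0.47), Chil3 (0.52 and −1.15), Gstm1 (1.56 and −0.3), Ltb (2.08 and −0.31), Lyz2 (1.22 and −1.1), Mcpt8 (1.35 and −0.22), Phlda3 (0.94 and −0.71), Procr (1.05 and −1.27), Rsad2 (0.06 and −0.19), Selp (2.24 and −0.79) and Tsc22d3 (2.31 and −0.19). The reverse was found for Cox6a2 (−1.39 and 0.12), Irf8 (−0.62 and 0.33), Pcna (−0.3 and 0.14) and Tfrc (−0.06 and 0.98). Lyz2 measured 191 and 81.6 FPKM in controls and 507 and 446 FPKM in HDAC3-KO CD115-CDPs, and 541 and 504 FPKM and 236 and 209 FPKM in LMPPs.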

How the results depend on the processing

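No gene passed the test in the main analysis, and this depended on the libraries. Requiring 5 FPKM left 75 genes with an upward and 184 with a downward gap of at least 1. Quantile normalization gave 209 and 201, and limma called 2 genes lower. Over the fits that left out 1 library, limma called 0 to 1640 genes higher and 0 to 3471 lower, non-overlapping genes numbered 2273 to 3878 above and 3908 to 5789 below, and gaps of at least 1 numbered 221 to 731 upward and 487 to 2331 downward. The highest calls came without HDAC3-KO library 1, and without HDAC3-KO library 2 limma called 572 higher and 823 lower. In these fits the lone library of a genotype was assumed to vary like the libraries of the other. The replicate block, which pairs libraries of equal number, called 102 higher and 291 lower. The deviations of same-numbered libraries correlated at 0.243, but with 2 libraries a genotype and no label that pairs them, the libraries share only a number.

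The sign of the log2 difference turned for some genes, all of them with overlapping groups except Mdm2, and the cause was not tested. With median-ratio rescaling, it became 0.087 for Ccnd1, 0.031 for Dntt, 0.014 for Mdm2, 0.085 for Mki67 and 0.052 for Xaf1. With quantile normalization, it became 0.14 for Abca1, 0.013 for Bmi1, 0.13 for Ccnd1, 0.51 for Ly6g, 0.041 for Mdm2, 0.037 for Mki67 and 0.13 for Xaf1. Leaving out 1 library at a time, the log2 difference ranged from −1.83 to 0.87 for Abca1, −0.31 to 0.37 for Bax, −0.55 to 0.018 for Bmi1, −0.51 to 0.47 for Ccnd1, −0.33 to 0.03997 for Ccnd2, −0.36 to 0.38 for Ccr7, −1.24 to 0.012 for Cd24a, −0.17 to 0.37 for Cd79b, −0.43 to 0.27 for Dntt and −0.93 to 0.12 for Ets1. The range was −0.604 to 0.011 for Flt3, −0.68 to 0.13 for H2-K1, −0.13 to 0.45 for H2-Oa, −0.13 to 0.27 for Hoxa9, −0.71 to 1.2004 for Ifit3, −0.25 to 0.0074 for Ikzf1, −0.204 to 0.81 for Kit, −1.04 to 0.67 for Ly6g, −0.15 to 0.28 for Ly75 and −0.83 to 0.79 for Mki67. The range was −1.33 to 0.55 for Oas3, −1.81 to 0.24 for Prss57, −0.49 to 0.92 for Rtp4, −1.32 to 0.58 for S100a9, −0.91 to 0.13 for Sirpa, −0.21 to 0.41 for Tlr7 and −0.68 to 0.57 for Xaf1. Of the other values of named genes over all alternatives, 1621 kept their direction and side of the threshold and 334 kept their direction and passed it. List medians moved by more than the spread between replicates in 65 of the values and stayed within it in 315. Read totals were not given for CD115-CDPs, so precision at low FPKM is unknown.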

Other observations

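Some gene families were looked at after their values had been seen, and are given as a description. Of 7 tested Gimap genes, which encode GTPases of lymphocyte survival, 5 lay above both controls and 2 overlapped, with a median log2 difference of 1.27. The largest gap was that of Gimap4, at 0.48 and 2.0 FPKM in controls and 18.8 and 14.6 FPKM in HDAC3-KO cells. All 4 tested Ifitm genes, which encode interferon-induced membrane proteins, lay above both controls, with a median of 1.46, while 14 of the 25 interferon-stimulated genes of the list above lay below. Of 13 tested cathepsins, proteases of lysosomes and granules, 9 lay below and Ctsg, a protease of primary granules, lay above, with a median of −0.47.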
